A study of Rattus norvegicus and Mus musculus with 10 samples.

Results

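Cluster myeloid2 of the mouse dura is the group of leukocytes that the authors' deposited cell annotation gives that name, and its leading genes are those of classical monocytes. Its members were taken from that annotation in both mouse libraries, and they number 530 of 7355 annotated mouse cells. Of these, 49 came from the naive library and the rest, 10.5% of the 4579 annotated cells there, from the EAE library. The naive library was made from the skull dura of 4 pooled unimmunized C57BL/6 mice. The EAE library was made from 3 pooled C57BL/6 mice taken at the peak of active experimental autoimmune encephalomyelitis (EAE), an autoimmune disease of the central nervous system that is induced by immunization. Both cell suspensions were sorted for CD45+CD45iv- leukocytes and run on 10x Genomics 3′ v3 chemistry, which counts transcripts as unique molecular identifiers (UMIs). The labels give neither the age nor the sex of the mice. The other libraries of the series are from rats and were not used here.

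The dura is the outer membrane around the brain and lies against the skull bone. Classical monocytes are made in the bone marrow, carry high Ly6C and the chemokine receptor CCR2, and enter inflamed tissue, where they can turn into macrophages or antigen-presenting cells. In EAE, CCR2-bearing monocytes are known to contribute to tissue damage. The resident macrophages of the brain's borders are a separate population that expresses Mrc1, the C1q genes and, in part, class II genes.

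Each condition was 1 pooled library, so no difference between naive and EAE has a replicate check and no p-value is given. Ratios are of CPM, a gene's UMIs scaled to all UMIs of the cluster in that library, and each has an exact 95% interval that covers counting error only. The naive cells of the cluster held 436717 UMIs with a median of 8643 per cell, and the EAE cells held 6247746 with a median of 12505. Annotated cells started at 503 UMIs in naive and at 5722 in EAE, and 45 of the 49 naive cells of the cluster reached the EAE minimum. The libraries shared 7 cell barcodes, 0 of them in this cluster. Scrublet called 2 of its EAE cells doublets. In the whole naive library it called only 0.108% of cells, too few for the call to have worked there. Xist, expressed from the inactive X chromosome of female cells, stood at 77.9 CPM in the naive and 0 in the EAE cells, and the Y-linked Ddx3y at 6.87 and 48.2 CPM, so the sex of the pools and the disease cannot be told apart.

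The label was checked against 5 genes that mark classical monocytes. Vcan, which encodes the matrix proteoglycan versican, stood at 98.5 CPM in the naive and 335 CPM in the EAE cells of the cluster. In both libraries these were the highest Vcan levels of any annotated cluster, and in T and NK cells, which should lack it, Vcan stood at 0.215 and 1.54 CPM. Ly6c2, which encodes the Ly6C antigen, stood at 1193 and 1778 CPM, and Chil3, a secreted chitinase-like protein, at 1704 and 4525 CPM. Ccr2, the receptor for the chemokine CCL2, stood at 600 and 578 CPM, and Plac8, a small protein of myeloid and lymphoid cells, at 3398 and 4426 CPM. Without thinning for depth, at least 3 of the 5 genes were detected in 93.9% of naive and 99.4% of EAE cells of the cluster, against 1.53% and 25.6% of T and NK cells. None of the 5 genes was limited to the cluster. Chil3 stood at 2547 and 5536 CPM in the neutrophil cluster granulo1 and at 7854 and 10264 in the neutrophil cluster granuloProli. The 5 genes summed to 9027 and 11256 CPM in granuloProli, against 6993 and 11642 in myeloid2, with only 7 naive granuloProli cells. Ly6c2 stood at 2086 CPM in the naive cluster cswBc and 1924 in the EAE cluster pDC. The EAE cluster BcProg held 114 CPM of Vcan and 3315 CPM of Chil3. Lyz2, the lysozyme of monocytes, macrophages and neutrophils, took 22014 and 28272 CPM of the cluster's RNA.

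**Figure D1:**
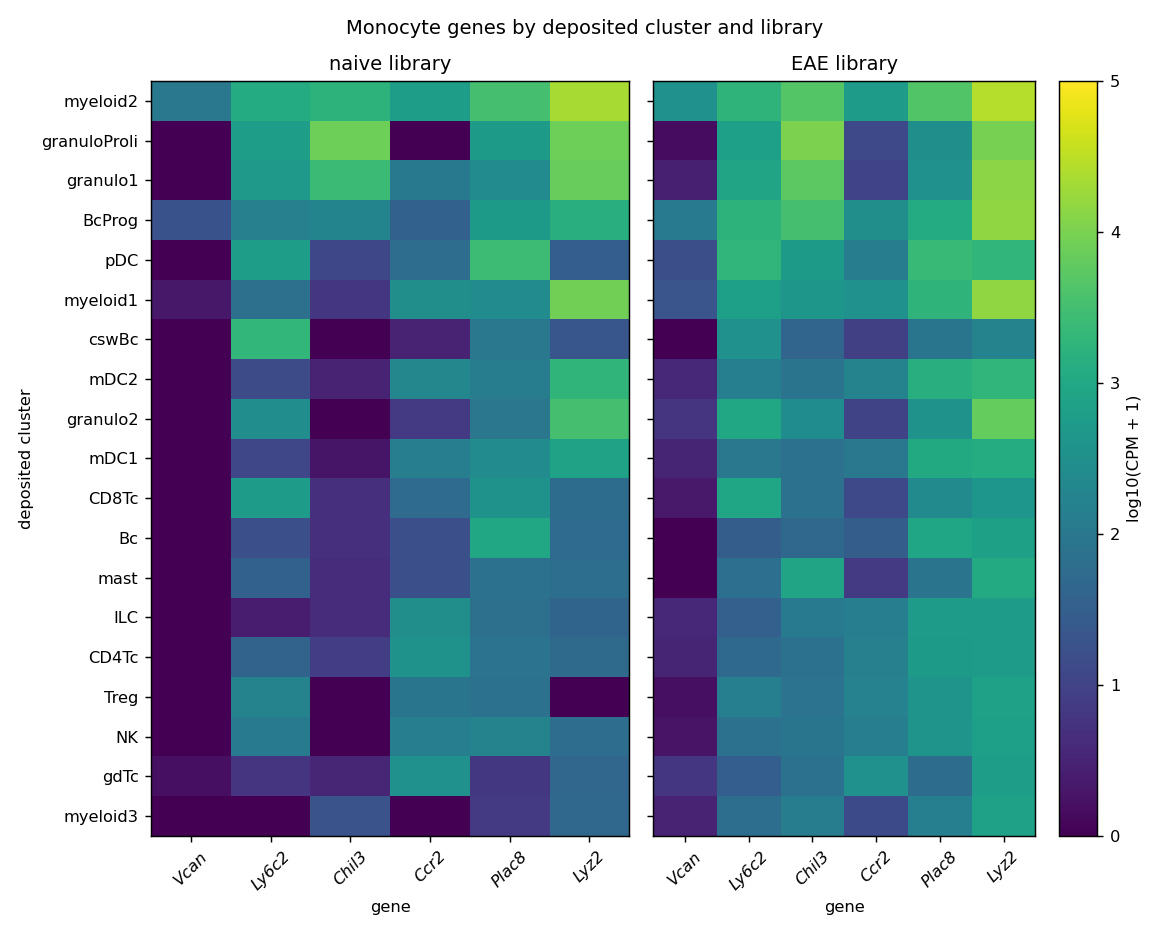
Colour gives log10(CPM + 1) of the 5 marker genes and Lyz2 in each deposited cluster (rows), with the naive library on the left and the EAE library on the right. Cluster myeloid2, in the top row, has the highest Vcan of all clusters in both libraries, followed in EAE by BcProg at 114 CPM.

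Ly6c2 lies on the minus strand of chr15:75108158-75111970 (GRCm38, GENCODE vM21), beside its close copy Ly6c1, which is best known from endothelium and lymphocytes. The coding parts, of 396 bases each, differ at 9 bases, and 20.6% of the 50-base stretches in the last 500 bases of the Ly6c2 transcript also occur in Ly6c1. The stretch with most differences, coding bases 6 to 65 counted from the first base of the start codon, is shown to describe the 2 copies. It lies at the start of the coding part, not at the 3′ end that this chemistry counts. Capitals mark the 6 bases that differ within the stretch.
Ly6c2: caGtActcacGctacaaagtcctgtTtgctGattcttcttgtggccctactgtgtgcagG
Ly6c1: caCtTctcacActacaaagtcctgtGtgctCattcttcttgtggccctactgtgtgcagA
Ly6c1 received 0 UMIs in the naive and 6 in the EAE cells of the cluster, against 521 and 11109 for Ly6c2. Chil4, the copy of Chil3, received 0 in both. For Vcan, Ccr2 and Plac8 no such stretch occurred in another gene.

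The cluster was compared with the deposited cluster myeloid1, which carries border macrophage and class II genes. How alike the clusters are as a whole was not measured. The clusters were made from these genes, so the comparison is a description. In the EAE library 3.93% of 10633 genes were called higher and 11.1% lower in myeloid2 than in myeloid1. In the naive library 14.8% of 6206 were called higher and 7.61% lower. A call here and below needs a ratio of at least 2 in either direction, an interval that excludes 1, and at least 20 UMIs over both sides. The genes that led in the EAE library and were also higher in the naive library included Vcan, Chil3, Mgst1, Fn1, Mmp8, Hopx, Gsr, Slpi and Anxa2. Fn1, fibronectin, stood at 511 CPM against 23.6 in the naive and 613 against 97.5 in the EAE library. In the other direction, C1qa, a chain of complement C1q, stood at 13.7 against 3679 CPM in naive and 73.1 against 3963 CPM in EAE cells. The mannose receptor gene Mrc1 stood at 4.58 against 181 and 7.36 against 229 CPM. The class II gene H2-Aa stood at 499 against 17459 and 984 against 11681 CPM. All 5 core genes had a higher level in myeloid2 in both libraries. Their median log2 ratio of myeloid2 over myeloid1 was smaller in EAE, at 1.45 against 4.11 in naive. The summed core genes stood at 11642 CPM in myeloid2 and 3260 in myeloid1 in EAE, against 6993 and 631 in naive.

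The cluster held 49 of 2776 annotated cells in the naive library, or 1.77% (exact Clopper-Pearson 95% interval 1.31 to 2.33), and 10.5% (9.63 to 11.4) of the 4579 in the EAE library. Of the cells in myeloid1 and myeloid2 together it held 17.8% (13.4 to 22.8) in naive and 32.5% (30.1 to 34.9) in EAE. Both naive shares depend on depth. Among cells with at least 5722 UMIs, the lowest EAE depth, the cluster held 45 of 739 in naive, or 6.09% (4.48 to 8.06), and 22.3% (16.7 to 28.6) of myeloid1 and myeloid2 together, while the EAE shares are unchanged by construction. The intervals cover counting error over cells, not differences between mice.

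Between EAE and naive cells of the cluster, 8756 genes had enough UMIs to compare, and their median log2 ratio was 0.05. Of these, 487 (5.56%) were called higher in EAE and 488 (5.57%) lower. With the named genes restricted to those at 100 CPM or more on the higher side, the largest increases were in S100a9, Ngp, Wfdc21, Saa3, Retnlg, Lcn2, S100a8, Lrg1, AW112010, Ly6a, Camp and Fcgr4. The largest decreases were in Gem, Hspa1b, Cxcl9, Cxcl10, Hspa1a, Vegfa, Ccl3, Cd83, Notch2, Alyref, Cxcr4 and Fabp5. With only 49 naive cells, single cells weighed heavily in some of these. All 141 naive UMIs of Cxcl9 came from 1 cell, which also held 84.4% of the 122 UMIs of Cxcl10. A second naive cell held 86.5% of the 52 UMIs of Gem and 70.6% of the 102 of Ccl3. By contrast Cd83 had UMIs in 37 of 49 naive cells, Alyref in 41, Cxcr4 in 36 and Notch2 in 33. Of these, Notch2 was also lower in EAE in T and NK cells, at 81.6 and 9.23 CPM. The same held there for Cxcr4, at 214 and 46.8, and Alyref, at 214 and 101. Cd83 stood at 81.8 and 76.2 CPM in those cells. A single cell held over 50% of the naive UMIs for 22 of the 488 genes called lower and for 66 of the 487 called higher.

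**Figure D2:**
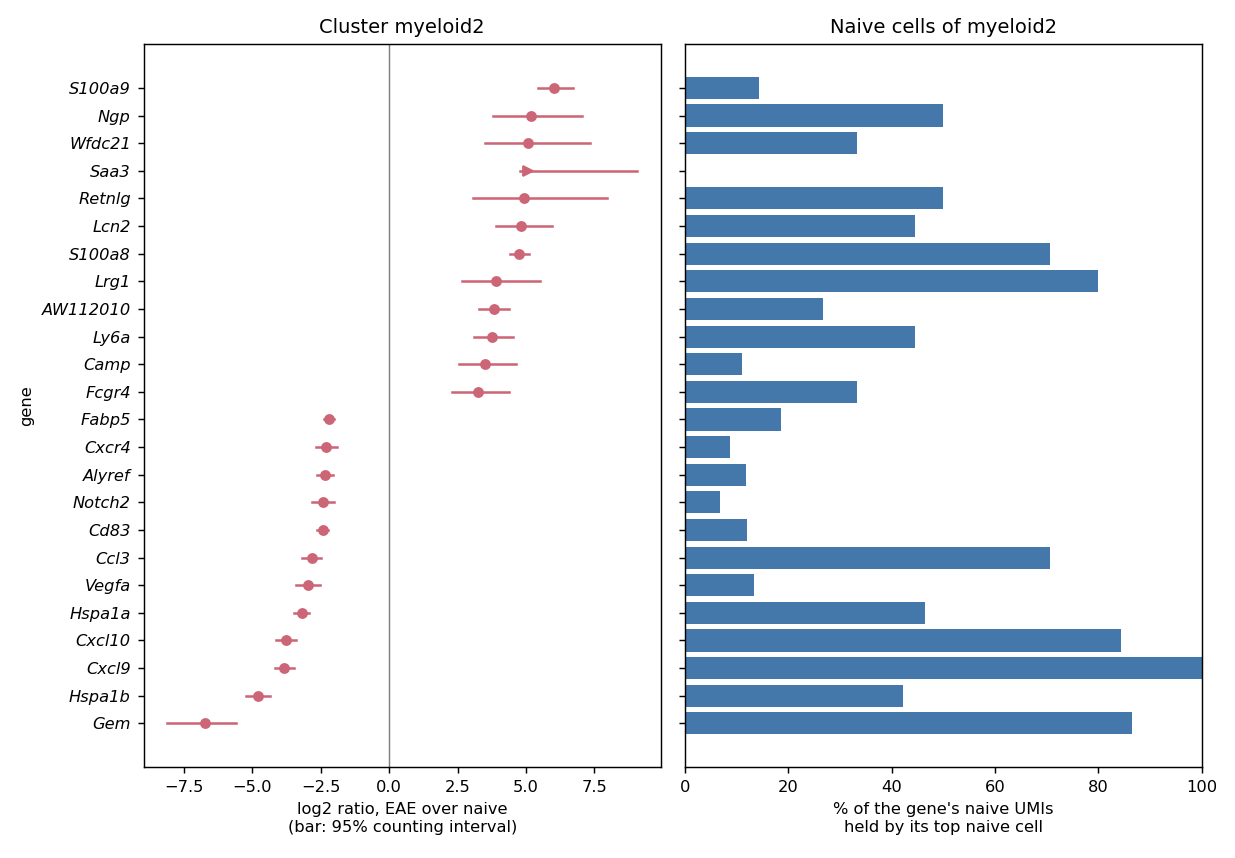
Left, the log2 ratio of EAE over naive CPM for the 12 highest and 12 lowest named genes, with 95% counting intervals (the arrow for Saa3 marks a lower bound, since it had 0 naive UMIs). Right, the percentage of each gene's naive UMIs that its top naive cell held, which reaches 100% for Cxcl9 and stays under 20% for Vegfa, Cd83, Notch2, Alyref, Cxcr4 and Fabp5.

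None of the 5 genes that mark the cluster was called lower in EAE. Of these core genes, 2 were called higher and 0 lower, with a list median log2 ratio of 0.58. Vcan was 3.41-fold higher (2.52 to 4.72) and Chil3 2.66-fold higher (2.47 to 2.86). Ly6c2 had a ratio of 1.49 (1.36 to 1.63), Plac8 of 1.30 (1.24 to 1.37) and Ccr2 of 0.964 (0.85 to 1.10), none of them called. By cell, Chil3 had a median of 4.58 UMIs per 10000 in naive cells with a highest value of 128, and a median of 32.4 with a highest of 309 in EAE cells. Ly6c2 had medians of 9.79 and 15.5, and Ccr2 of 5.36 and 5.54, so the cells of the 2 libraries overlapped widely. After thinning each cell to 1000 UMIs, Vcan was detected in 9.44% of naive and 25.6% of EAE cells, and Chil3 in 47.6% and 74.0%, with 1 shallower naive cell left out. Unthinned, the shares were 32.7% and 81.1% for Vcan and 73.5% and 94.4% for Chil3. In T and NK cells, whose median depths were 4026.5 and 7332 UMIs, the Chil3 shares were 0.473% and 7.37% thinned and 1.53% and 44.98% unthinned. Of 18 further classical monocyte genes, 1 was called higher (Sirpb1c, a signal-regulatory receptor, 2.07-fold) and 1 lower (Thbs1, thrombospondin, 2.24-fold), with a median of 0.16. S100a6 stood at 3680 and 3940 CPM, and Mgst1, a glutathione transferase, at 570.2 and 581.

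Non-classical monocytes are the patrolling, Ly6C-low form that depends on the nuclear receptor Nr4a1. All 11 of the 11 measured members of their list had a log2 ratio below 0 in EAE, with a median of -0.86, and 2 were called lower. The median was -0.42 over cells with at least 5722 UMIs, and 1 member had a ratio above 0 without the cells high in S100a8 described below, a run added after these values were seen. The 2 members called lower were Nr4a1, at 165 CPM in naive and 57.0 in EAE, and Adgre4, an adhesion receptor, at 38.9 and 9.60. Cx3cr1, the fractalkine receptor, had 48.1 and 24.2 CPM without being called. Nr4a1 is also an immediate early gene, and the early genes described below were lower as well. In T and NK cells Nr4a1 stood at 441 and 114 CPM.

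Genes of neutrophils had the highest median log2 ratio of the lists with 5 or more members measured, 3.69, with 11 of 14 called higher and 0 lower. The summed list stood at 545 CPM in naive and 9689 CPM in EAE cells of the cluster. Without cells high in S100a8, in a run added after these values were seen, it stood at 422 and 4576 CPM, with 9 called higher. S100a8 is a member of the list, so a lower sum follows in part from the choice of cells. S100a8 and S100a9, the calprotectin subunits, stood at 156 and 48.1 CPM in naive and 4188 and 3159 CPM in EAE. A single naive cell held 70.6% of the 68 naive UMIs of S100a8, and without that cell S100a8 stood at 46.7 CPM in naive. The granule gene Ngp stood at 9.16 and 329 CPM, and Camp, the cathelicidin, at 20.6 and 231 CPM. The same genes were raised in cells that do not make them. T and NK cells of the EAE library held 2284 CPM of S100a8, 2365 of S100a9 and 442 of Ngp, and their list sum was 6368 CPM. Thinned to 1000 UMIs, Ngp was detected in 28.4% of EAE monocytes and 30.3% of EAE T and NK cells, and S100a8 in 74.1% and 71.2%. Unthinned, Ngp was detected in 97.5% and 93.4%, and S100a8 in every cell of both. Those shares are at the level of free RNA and are not read as expression.

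Set against Ngp, the members of the list differed in kind. Per UMI of Ngp the cluster held 0.701 UMIs of Camp and 0.207 of Ltf, against 0.638 and 0.238 in T and NK cells and 0.706 and 0.222 in myeloid1. S100a8, by the same measure, stood at 12.7 in the cluster, against 5.17 in T and NK cells and 3.60 in myeloid1. Much of this ratio lay in 39 cells high in S100a8 that are described below. In the other EAE cells of the cluster it was 4.16, and the S100a9 ratio was 3.91, against 5.35 in T and NK cells. The 39 cells were chosen by S100a8, so its lower value without them follows from that choice. No cells were taken out of T and NK cells or myeloid1, where 8 and 14 cells reached the same S100a8 level. Lcn2, the iron-siderophore binding lipocalin, stood at 1.79 against 0.720 and 0.562, and at 1.06 without the 39 cells. Wfdc21, a secreted whey acidic protein family member, stood at 0.700 against 0.135 and 0.112, and at 0.374 without them. Mmp8, the neutrophil collagenase, stood at 0.752 against 0.0442 and 0.0531, and at 0.657 without them, and it was present in naive cells of the cluster too, at 108 CPM against 0 in naive T and NK cells. The neutrophil cluster granulo2 had ratios of 25.1 for S100a8, 1.87 for Lcn2 and 0.616 for Wfdc21, and of 8.33 for Retnlg, which stood at 0.424 in the monocytes and 0.748 in T and NK cells. Among the non-neutrophil clusters plotted, Camp ran from 0.466 in myeloid3 to 0.760 in mDC2. The part of free RNA and of each neutrophil cluster in these ratios was not tested. The defining neutrophil genes Ly6g and Cxcr2 stood at 5.76 and 2.56 CPM in EAE cells of the cluster, against 10.3 and 2.31 in EAE T and NK cells.

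**Figure D3:**
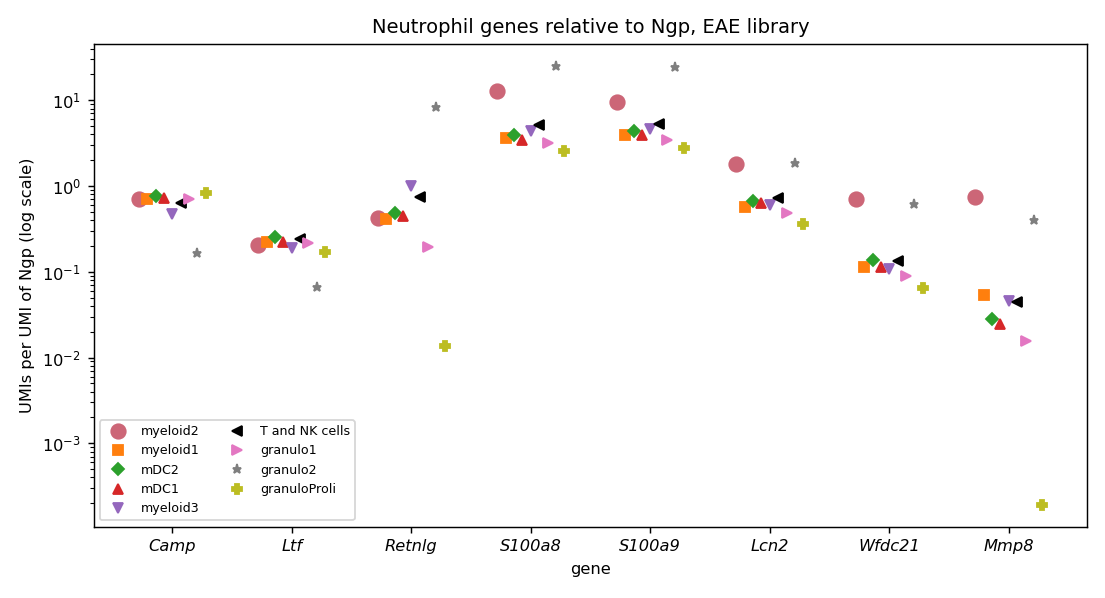
UMIs of each gene per UMI of Ngp (log axis) in clusters of the EAE library. For Camp and Ltf, myeloid2 (large circles) sits among the other clusters, while for S100a8, S100a9, Lcn2, Wfdc21 and Mmp8 it lies above every non-neutrophil cluster. Of the neutrophil clusters, granulo2 lies higher for S100a8, S100a9 and Lcn2, and also for Retnlg, where myeloid2 does not stand out.

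Effector and repair genes were higher in EAE, with 9 of 16 called higher, 1 lower and a median log2 ratio of 1.20. Saa3, an acute-phase serum amyloid, had 0 UMIs in the 49 naive cells and 230 CPM in EAE cells. With the naive side set to 3 counts it was 33.5-fold higher, and the exact interval ran from 27.2 with no upper limit. It was spread over 136 EAE cells (28.3%), and T and NK cells held 3.23 CPM. The rise was not particular to the cluster, since Saa3 stood at 0.563 CPM in naive and 347 CPM in EAE myeloid1. Trem1, which amplifies inflammatory signals, stood at 52.7 and 184 CPM (3.49-fold higher, 2.31 to 5.52), and the lipid-sensing receptor gene Trem2 at 50.4 and 131 CPM (2.61-fold, 1.71 to 4.18). Spp1, osteopontin, stood at 4.58 CPM, or 2 UMIs, in naive and 84.7 CPM in EAE, against 31.7 CPM in EAE T and NK cells. Tgfbi, a matrix protein induced by TGF-beta, stood at 440 and 1047 CPM. Arg1, Nos2 and Retnla, the usual markers of polarised macrophages, were at 9.76, 2.56 and 0 CPM in EAE and at 0 in naive. Vegfa, the vascular growth factor, was the member called lower, at 153 CPM in naive and 19.7 CPM in EAE. It was detected in 53.1% of naive and 17.9% of EAE cells, unthinned. T and NK cells held 84.4 and 32.2 CPM of it.

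Of the activating Fc receptor genes, Fcgr1 and Fcgr4 were called higher, while Fcgr3 stood at 357 and 614 CPM, 1.72-fold, without being called. Fcgr1, the high-affinity IgG receptor, stood at 36.6 CPM in naive and 221 in EAE, 6.04-fold higher (3.70 to 10.6). Fcgr4, a receptor for IgG2 subclasses, stood at 20.6 and 194 CPM, 9.43-fold higher (4.95 to 20.7). EAE T and NK cells held 7.08 and 9.23 CPM of the pair. Fcgr4 stood at 104 CPM in naive and 310 in EAE myeloid1, and at 8.53 and 95.8 in mDC2. Of 14 Fc, phagocytic and pattern receptors, 3 were called higher and 0 lower. The other was Tlr4, the endotoxin receptor, at 11.4 CPM, or 5 UMIs, in naive and 29.8 CPM in EAE. The inhibitory Fcgr2b stood at 172 and 166 CPM, and Fcer1g, the shared signalling chain, at 3499 and 3374. Among 18 trafficking receptors, 3 were called higher, among them the chemokine receptor gene Ccr1, at 160.3 and 332 CPM. Another was the formyl peptide receptor gene Fpr2, at 4.58 CPM, or 2 UMIs, in naive and 66.4 CPM in EAE. Cxcr4, the bone marrow retention receptor, and the tetraspanin Cd9 were called lower. A single naive cell held 54.5% of the 44 naive UMIs of Cd9, which was detected in 22.4% of naive and 23.3% of EAE cells, unthinned. Cxcr4 stood at 181 and 36.7 CPM, and at 214 and 46.8 CPM in T and NK cells. Growth factor receptors gave 2 of 11 higher, Csf2rb, the shared beta chain for GM-CSF and IL-3, at 93.9 and 213 CPM, and Tgfbr1, which had only 4 naive UMIs.

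Genes induced by interferon gamma gave 6 of 19 called higher and 3 lower, with a median log2 ratio of 0.58, and this count turned on 1 naive cell. Gbp2, a guanylate-binding protein that acts on intracellular microbes, stood at 68.7 CPM in naive and 360 in EAE, against 43.5 in EAE T and NK cells, although 73.3% of its 30 naive UMIs lay in 1 cell. Psmb8, an immunoproteasome subunit, stood at 359.5 and 903 CPM, and Tap1, the peptide transporter of class I presentation, at 55.0 and 176. T and NK cells had 815 CPM of Psmb8 and 139 of Tap1 in EAE. The 3 genes called lower were Cxcl9, Socs1 and Irf1. The naive cell with all the Cxcl9 UMIs had 8174 UMIs in all, with 8 of Ly6c2, 62 of Plac8, 127 of Lyz2 and 80 of H2-Aa. Without it, in a run added after these values were seen, 11 members were called higher and 0 lower, and the median was 1.47. Cxcl9 then had 0 naive UMIs and 22.7 CPM in EAE. Gbp4 went from 13.7 to 2.33 CPM on the naive side, and Igtp from 32.1 to 4.67. Both had been uncalled and were then called higher. Cxcl10, which is not a member of this list, was still called lower without the cell, at 44.3 CPM in naive against 20.3 in EAE.

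Genes of the type I interferon response gave 5 of 29 called higher, 1 lower and a median of 0.46. The members raised were Isg15, Ifit1, Ifit2, Ifit3 and Rsad2, antiviral effectors that stood at 0 to 59.5 CPM in naive and 17.4 to 162 CPM in EAE. Ifit1 stood at 20.8 CPM in EAE T and NK cells, and Ifit2 and Ifit3 each had a single naive UMI. Isg15, a ubiquitin-like modifier, was 2.72-fold higher (1.85 to 4.19), and without the cell just described 8 members were called higher. In T and NK cells Isg15 stood at 201 and 88.8 CPM. The most abundant members were not called. Ifitm3 stood at 6368 and 6230 CPM, and Ifi27l2a at 2388 and 1457 CPM. Irf7, the transcription factor that amplifies the response, stood at 167 and 252 CPM.

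Class II presentation genes were low in the cluster and higher in EAE for 2 of 11 members. H2-Ab1 stood at 392 and 914 CPM (2.34-fold higher, 2.01 to 2.74) and H2-Eb1 at 254 and 510 CPM (2.01-fold higher, 1.66 to 2.45). H2-Aa stood at 499 and 984 CPM without being called, and it was called higher, at 322 CPM in naive, without the cell that held the Cxcl9. T and NK cells rose as well, from 158 to 402 CPM of H2-Aa. The costimulatory genes Cd40 and Cd80 were called lower, at 59.5 and 17.0 and at 29.8 and 12.5 CPM, while Cd86 stood at 91.6 and 137.

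Among border macrophage genes, 4 of 10 were called higher, and their levels differed in kind. C1qa, C1qb and C1qc stood at 13.7, 20.6 and 6.87 CPM in naive and at 73.1, 117 and 38.3 CPM in EAE. In T and NK cells, which do not make C1q, they stood at 105, 124 and 52.6 CPM in EAE. The thinned share of cells with C1qa was 5.38% in the EAE monocytes and 7.24% in EAE T and NK cells, and the unthinned share 36.6% and 30.8%, so over the cluster as a whole C1q is not above the background level. A single EAE cell held 61 of the 457 C1qa UMIs, and 2 naive cells held all 6 on that side. Apoe, the lipid carrier, stood at 1204 and 2926 CPM (2.43-fold higher, 2.23 to 2.65), against 34.8 and 482 CPM in T and NK cells. Lyve1 had 0 UMIs in either library, and Mrc1, Cd163 and Folr2 stayed under 8 CPM.

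Genes of early response and heat shock were lower in EAE, with 10 of 17 called lower, 0 higher and a median of -1.21. Fos stood at 1385 CPM in naive and 494 in EAE, Zfp36, which destabilises cytokine mRNA, at 744 and 197, and the MAP kinase phosphatase gene Dusp1 at 469 and 156. The heat shock gene Hspa1a stood at 449 and 49.0 CPM, and it was detected in 5 of 49 naive cells, 1 of which held 46.4% of its UMIs. These genes are induced by tissue dissociation as well as by stimulation, and T and NK cells showed the same direction, with Fos at 1037 and 145 CPM and Hspa1a at 261 and 8.0. The part that handling played was not tested. NF-kB feedback genes gave 3 of 14 called lower and 0 higher, namely Nfkbia, Tnfaip3 and Ptgs2. Nfkbia, the inhibitor of NF-kB, stood at 1482 and 653 CPM.

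Inflammatory cytokines and chemokines gave 4 of 15 called lower and 1 higher. Il1b stood at 1234 CPM in naive and 601 in EAE, Cxcl2, a neutrophil chemoattractant, at 657 and 167, and Osm, oncostatin M, at 202 and 49.3. Ccl3 stood at 234 and 32.8 CPM, and at 71.6 CPM in naive without its top cell, where it was still called lower. Ccl5, which attracts T cells and monocytes, was the one called higher, at 55.0 and 144 CPM, against 2839 CPM in EAE T and NK cells. Tnf stood at 16 and 17 CPM, and Il6 had 5 naive UMIs and 1.28 CPM in EAE. Myeloid transcription factors gave 5 of 17 lower and 1 higher. Cebpb, a driver of monocyte cytokine genes, stood at 3437 and 873 CPM and was 3.94-fold lower. Cebpd, Klf2, Nr4a1 and Bhlhe40 were lower too, and Zeb2, a repressor needed for monocyte development, was higher, at 151 and 351 CPM. Spi1, which encodes PU.1, stood at 311 and 439 CPM, and Irf8 at 91.6 and 92.0. Cebpb was lower in T and NK cells as well, at 1089 and 215 CPM.

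Genes of the cell cycle summed to 3590 CPM in naive and 2100 CPM in EAE. Of 20 members measured, 9 were called lower in EAE and 2 higher. The median log2 ratio was -1.11, and -0.60 with cells weighted equally. Ube2c, which drives mitotic exit, stood at 117 and 41.5 CPM, with 58.8% of its naive UMIs in 1 cell, and Ccnb2 at 84.7 and 39.4. Mki67 had 8 naive UMIs and 13.3 CPM in EAE. A single naive cell held 80% of the 5 naive UMIs of Cenpe, 62.5% of the 8 of Cdk1 and 60% of the 5 of Top2a. For Ccnb2 the top naive cell held 27.0%. Without the naive cell with the most Ccl3, 7 were called lower. Both higher members were histone genes, Hist1h2ap and Hist1h1b, and Hist1h2ap stood at 725 CPM in EAE T and NK cells. Lysosome and cathepsin genes gave 0 of 14 called in either direction, and glycolysis and hypoxia genes 1 of 20 in each. Gapdh stood at 1660 and 2910 CPM, and Hilpda, a hypoxia-induced lipid droplet protein, was lower at 240 and 97.6.

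Markers of other cell types stayed low. The T and NK list summed to 77.9 CPM in naive and 98.4 in EAE, the B cell list to 291 and 234, of which Ighm and Igkc made up most, and the dendritic cell list to 64.1 and 35.1. None of the 10 T and NK or 6 B cell genes measured was called. Cd209a, a lectin of monocyte-derived dendritic cells, fell from 27.5 to 2.40 CPM, on 12 naive UMIs. Mast cell, innate lymphoid, stromal and erythroid lists summed to at most 75.6 CPM in either library, with 1 mast cell and 1 innate lymphoid gene called lower. The granulocyte-monocyte progenitor list had 2 of 5 called higher. Its Prtn3, proteinase 3, stood at 126 CPM in naive and 319 in EAE, against 31.5 in EAE T and NK cells, whereas Mpo, myeloperoxidase, stood at 16.6 CPM in the cluster and 17.4 in those cells. Of 7 iron and haem genes, Hmox1, haem oxygenase, was called lower at 250 and 118 CPM.

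The EAE cells of the cluster were not uniform in class II. For each cell the UMIs of H2-Aa, H2-Ab1, H2-Eb1 and Cd74 were summed per 10000 UMIs. The quartiles were 8.73, 16 and 98.7 and the 90th percentile was 200, with few cells between the low and the high mode. A division at 30 per 10000, placed after the distribution was seen, put 207 EAE cells (43.0%, 38.6 to 47.6) on the high side, with 19 cells within 20% of it. In naive it put 14 of 49 (28.6%, 16.6 to 43.3) there, and 99.2% of EAE myeloid1 cells. T and NK cells of the EAE library had a median of 10.5 and 8.39% of them reached 30. So the lower mode of the cluster lies near the free RNA level and the upper mode above it. The division is a range of a continuous measure, not a cell type.

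In cells on the class II high side the summed core genes had a median of 117 per 10000 UMIs against 112 in the rest. Ccr2 stood at 642 and 534 CPM and Plac8 at 5949 and 3364, while Chil3 stood at 2959 and 5616, none of them called. Of 8611 genes, 2.32% were called higher and 1.89% lower on the high side. Interferon-induced genes were among those higher. Ly6a, the Sca-1 antigen, stood at 1033 CPM against 225, Gbp2 at 529 against 243, Isg15 at 259 against 94.8, and Apoe at 4476 against 1846. The median cell held 32.7 UMIs per 10000 of interferon gamma genes on the high side and 12.4 on the other. For the border macrophage list, which is mostly Apoe, the medians were 38.5 and 9.59, and Mrc1 stood at 12.5 and 3.80 CPM. The C1q genes were called higher on the high side, with C1qa at 112 against 45.9 CPM and C1qb at 189 against 67.6, where T and NK cells had 105 and 124. Fn1 was lower on the high side, at 361 against 788 CPM, as was Stmn1, a microtubule regulator of dividing cells, at 23.8 against 120. Median depths were 11964 and 12679.5 UMIs, and 1 called doublet lay on the high side.

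**Figure D4:**
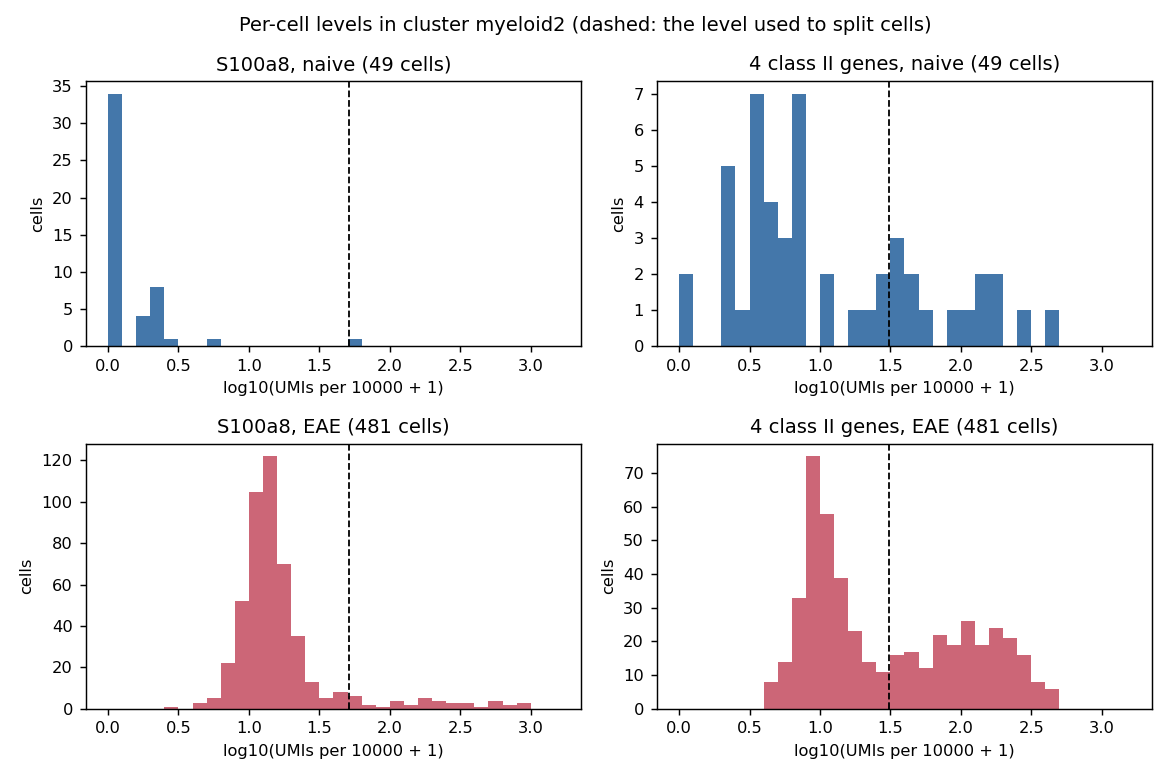
Histograms of cells by log10(UMIs per 10000 + 1) for S100a8 (left) and for H2-Aa, H2-Ab1, H2-Eb1 and Cd74 summed (right), naive above and EAE below, with the dividing levels of 50 and 30 per 10000 dashed. In EAE class II has a low and a high mode, and S100a8 has a narrow main peak with a tail of 39 cells.

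S100a8 was unevenly spread beyond the free RNA level. The median EAE cell held 12.8 UMIs of it per 10000, close to the 12 of T and NK cells, but the highest held 927. The 39 cells at 50 or more (8.11% of the EAE cells, 5.83 to 10.9, with 13 cells within 20% of that level) held 70.5% of its UMIs. In EAE myeloid1 1.4% of cells reached it, and 1.1% of EAE T and NK cells. Relative to the other EAE cells of the cluster, 1.81% of 8611 genes were called higher in the 39 and 2.85% lower. S100a9 stood at 20667 CPM against 1285, Lcn2 at 2819 against 350, and Wfdc21 at 1236 against 123. Stfa1, a cysteine protease inhibitor, stood at 126 against 3.72, but 1 cell held 73 of its 97 EAE UMIs. Its difference therefore rests largely on that cell. Mmp8 stood at 543 against 216, and Pglyrp1, a peptidoglycan recognition protein, at 232 against 66.6. Other granule genes were not called, with Ngp at 333 against 329, Camp at 190 against 235 and Ltf at 84.4 against 66.4 CPM. Elane and Prtn3, serine proteases of progenitors, stood at 152 against 45.2 and at 632 against 285. Chil3 stood at 7396 against 4218 and Ly6c2 at 2233 against 1729 CPM. Apoe was lower, at 791 against 3154, as were Cd74, at 1629 against 4335, and Gbp2, at 167 against 381. Of these 39 cells 5 were also on the class II high side, and 0 were called doublets. In naive, 1 of 49 cells reached 50.

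The EAE cells were also divided into ranges of 161, 160 and 160 by the share of UMIs in the 5 core genes. The shares ran from 0.0437% to 3.45%, and 62 and 94 cells lay within 10% of the 2 boundaries, so the ranges grade into each other. Median depths were 12667, 12610 and 12235 UMIs. Between the high and the low range 1.13% of 7904 genes were called higher and 1.96% lower, with a median log2 of -0.03. Of 28 type I interferon genes 20 had an interval above 1 and 0 below, with a median log2 ratio of 0.60, and 5 were called higher. Of all 7904 genes, 6.83% had an interval above 1 and 8.74% below. Irf7 stood at 171, 228 and 364 CPM from low to high, and Ly6a at 276, 581 and 839. Of 10 border macrophage genes 8 had an interval below 1 and 4 were called lower. C1qa stood at 105, 65.7 and 45.6 CPM, against 105 in T and NK cells, while Apoe stood at 2885, 3129 and 2760. Proliferation genes had a median of -0.75, with Stmn1 at 120, 64.2 and 54.6 CPM.

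Set beside the same ratios in the other myeloid clusters, which come from the same 2 libraries, some genes of the cluster had a partner in each and some did not. The median log2 ratio of all genes was 0.05 in myeloid2, 0.40 in myeloid1, 0.55 in mDC2 and -0.49 in granulo1. Gbp2 had log2 ratios of 2.39, 2.37, 1.89 and 1.79 in that order, Cxcr4 of -2.30, -2.18, -1.83 and -2.83, and Cebpb of -1.98, -1.36, -1.64 and -1.39. Chil3 had 1.41 in myeloid2 and 6.42 in myeloid1, where it began at 5.06 CPM. Isg15 had 1.45 in myeloid2 and -0.72 in myeloid1. Ly6a stood at 557 CPM in EAE myeloid2, below the 1116 of EAE myeloid1 and the 1298 of EAE mDC2. None of these differences between clusters was tested.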

How the data were processed

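The mouse expression matrix holds UMI counts that the authors deposited for both dura libraries together. Per the submitters' processing notes it was made with Cell Ranger 3.1.0, and mm10 is among the builds listed there. Cells, conditions and clusters were taken from the authors' deposited annotation, so cell filters are theirs. B cell receptor contig tables give deposited UMI counts per contig.

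UMIs were summed over the cells of a cluster in each library and scaled to CPM, with no filter on cells. Ratios carry exact conditional 95% intervals, zero counts were replaced by 3 counts for the whole group, and genes under 20 UMIs over both sides were not compared. Intervals cover counting error only. The ratio and interval code was tested on simulated data. Shares of cells with a UMI were thinned to 1000 UMIs by hypergeometric expectation, leaving out shallower cells, with CD4Tc, CD8Tc, gdTc, Treg and NK cells as the free RNA background. Named genes are the 5 core genes and Lyz2, the 12 highest and 12 lowest called ratios at 100 CPM or more (without ribosomal, mitochondrial, Gm-number and Rik names), members of 29 gene lists, and the 10 leading genes against myeloid1. The members and the lists were chosen with earlier results of these data known. The S100a8 and class II divisions were added after the values were seen. Scrublet, run in scanpy 1.11.5, gave doublet calls, and called cells were kept. TMM factors came from edgeR 4.0.16. Mx2, Aldoa and Clec7a were not analysed here, and 2 list members are not reported here. The motif search planned in interferon gene promoters was not run, since no mouse promoter sequence was used here. Alternatives were TMM or centred scaling, cells weighted equally, depth, doublet and core gene filters, UMI minimums, totals without neutrophil genes, and thinning.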

Additional observations from a re-analysis of the deposited data

Results flagged for a closer look

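Each of the following genes was called between EAE and naive cells of the cluster and had a ratio of the opposite sign in myeloid1. The difference between the clusters was not tested, and both come from the same 2 libraries. C1qb had a log2 ratio of EAE over naive of 2.51 in myeloid2 and -0.06 in myeloid1, and C1qc of 2.48 and -0.31, at levels in myeloid2 below those of EAE T and NK cells. H2-Eb1 had 1.01 and -0.49. Ifit1 had 1.34, on 0 naive UMIs set to 3 counts, and -1.95. Isg15 had 1.45 and -0.72, and Rsad2 2.36, on 3 naive UMIs, and -0.77. Thbs1 had -1.17 and 0.45, and Vegfa -2.96 and 0.41.

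B cell receptor contigs, outside the expression measurement, were assigned to 79 EAE barcodes of the cluster (16.4% of them, exact 95% interval 13.2 to 20.04). The share was 16.6% in T and NK cells, 18.9% in myeloid1 and 58.3% in the B cell clusters, and 15 of the 79 had a productive heavy chain. None of the 159 barcodes of the naive contig table occurs in the naive expression library, so naive gives no control value.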

How the results depend on the processing

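No paired analysis was possible because each condition has 1 sample. Restricting both libraries to cells with at least 5722 UMIs moved the naive share of the cluster from 1.77% to 6.09%. The share of cells with any core gene was 98.2% in naive and 99.6% in EAE after thinning to 1000 UMIs, 100% in both unthinned, and 99.96% in EAE at 3000 UMIs, against 32.1% and 47.1% thinned and 62.9% and 92.2% unthinned in T and NK cells. Over the alternatives, counts of called genes ran from 419 to 578 higher and from 377 to 618 lower. With edgeR's TMM scaling 562 genes were called higher and 439 lower, and with cells weighted equally 578 and 501, of which 417 and 409 were also called by the summed UMIs. Directions reversed for Tgfbr1 with cells weighted equally (log2 -0.10), for Cxcl9 without the naive cell that held its UMIs (1.70 against 3 counts) and for Stfa1, at 0 in naive, without cells high in S100a8 (-0.91 against 3 counts). The last 2 settings were chosen after seeing the data. The 49 naive cells limit every ratio.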
